A study of Homo sapiens with 6 samples.

Results

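The 32 genes described here are targets of the transcription factor p53, taken as a list by symbol from the 58395 genes counted, and each matched 1 gene row. They were ordered by role: 6 arrest genes, 3 feedback genes, 8 genes of mitochondrial apoptosis, 4 death receptors, 4 DNA repair genes and 7 genes of metabolism and stress. RNA-seq libraries came from 6 clones of HEK293, an established human embryonic kidney line. GST lines 2, 8 and 9 expressed GST-3F, the tagged control protein, and NOCT lines 4, 11 and 12 expressed NOCT ∆(2-15)-3F, a tagged nocturnin without residues 2 to 15. Every line was cultured for 3 days without a further treatment named in the labels, and each line is 1 clone, so p-values measure the spread between clones.

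The p53 protein binds DNA as a tetramer and raises transcription of genes that halt the cell cycle, repair DNA or start apoptosis. One of its targets, MDM2, encodes the ubiquitin ligase that marks p53 for destruction and so closes a negative feedback loop. HEK293 cells carry early genes of an adenovirus, and the E1B protein encoded there is known to bind p53 and to blunt its activity, while basal p53-dependent transcription of many targets remains.

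Sequences are shown for the genes whose start region holds the p53 half-site, the 10-base pattern to which 1 p53 dimer binds, because the levels of many members varied together from line to line. RefSeq promoter windows (GRCh38.p14, 250 bases before to 50 bases after a start) matched 26 of the 32 genes. The others, GADD45A, TP53INP1, TNFRSF10A, TNFRSF10B, RRM2B and PHLDA3, had no entry. The canonical half-site, which reads the same on both strands, was present in 6 of the 26 (23.1%), against 8.06% of the 27305 symbols with a window. A gene counts if any of its windows holds a match. The genes were listed as p53 targets, so a higher share can follow from that choice. Whether the sites have a part in the levels by line was not tested. Genes highest in NOCT line 12 were found both with a half-site (DDB2, AEN) and without one in their windows (MDM2, EDA2R). PLK2, which held one, was highest in NOCT line 11. DDB2 held a pair of half-sites at most 13 bases apart, as did 10 symbols in all. Its window (chr11:47214724-47215023, plus strand) is printed whole, with capitals marking the half-sites, which lie 1 base apart just after the start.

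DDB2: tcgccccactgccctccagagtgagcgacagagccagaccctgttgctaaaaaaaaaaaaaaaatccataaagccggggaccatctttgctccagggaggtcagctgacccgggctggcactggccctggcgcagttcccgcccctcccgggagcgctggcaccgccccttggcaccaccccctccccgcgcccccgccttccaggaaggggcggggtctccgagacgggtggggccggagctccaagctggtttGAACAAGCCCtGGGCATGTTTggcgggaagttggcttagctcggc

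The other genes with a half-site are shown with 10 bases on each side, read along the gene's own strand. The capitals lie at chr5:58460209-58460218 (PLK2, minus strand), chr6:109009028-109009037 (SESN1, minus), chr10:88991309-88991318 (FAS, plus), chr15:88621306-88621315 (AEN, plus) and chr17:74872996-74873005 (FDXR, minus).
PLK2: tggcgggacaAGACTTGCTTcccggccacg
SESN1: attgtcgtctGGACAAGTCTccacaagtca
FAS: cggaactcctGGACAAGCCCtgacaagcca
AEN: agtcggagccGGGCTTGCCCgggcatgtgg
FDXR: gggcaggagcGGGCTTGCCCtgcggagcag

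A match describes these letters only, and a window without one says nothing of sites outside it.

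Libraries held 19729745 to 24422406 gene counts. Each held the construct its label names, at 46 to 88 counts, against 0 to 7 of the other construct. Of 9 HEK293 markers, 8 passed the filter on low counts, from vimentin (VIM) at 679 to 1428 CPM down to PAX2 at 0.747 to 5.703 CPM (CPM, counts scaled to a common depth with TMM factors from edgeR), and the neurofilament gene NEFM had 4 to 9 counts in 5 lines and 137 in NOCT line 12. None of 10 markers of blood, endothelium, liver, fibroblasts, muscle or glia passed it; CD3E, HBB and COL1A2 had 0 counts in all 6 lines, and COL3A1 had the most, at 5 to 26. No pair of libraries was identical. NOCT line 12 stands apart from NOCT lines 4 and 11 in the genes described here, so results are given with and without it. It was singled out from the values of these same genes, so p-values without it are descriptive.

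All 32 genes had enough counts to be tested. Their levels, compared between genes as deposited TPM (a share of all transcripts that is corrected for length), spanned from PMAIP1 at a mean of 433 over the 6 lines and CCNG1 at 259.8 down to SPATA18 at 0.977 and GDF15 at 0.748 TPM. MDM2 at 87.6 and CDKN1A at 67.1 came next after these. The genes of intermediate rank, from TRIAP1 at 49.2 to FAS at 7.27, followed each other closely. BAX at 41.4 and TNFRSF10B at 41.4, neighbours in that order, did not differ beyond the spread of their lines.

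Between NOCT and GST lines, none of the 32 genes passed edgeR's quasi-likelihood test after Benjamini-Hochberg adjustment across the 17261 genes tested, in which 0.0579% of all genes had an adjusted p under 0.05. At an unadjusted p under 0.05 there was 1 of 32, PLK2, against 13.9% of all genes (7.38% higher and 6.52% lower in NOCT lines). DESeq2 called 0 of the 32 on the same counts (2.94% of all genes) and 1 at an unadjusted p under 0.05 (13.5%). The authors' deposited table also holds 0 of them at an adjusted p under 0.05 against 2.09% of its gene rows, and 1 with a p under 0.05, against 10.5%. Of the 32 fold changes, 17 were above 0 and 15 below, with a median log2 value of 0.01 beside 0.00 for all genes. PLK2 was also the 1 gene whose groups did not overlap, with NOCT higher, which was so for 10.5% of all genes; 0 of the 32 lay wholly lower, against 9.54%. Separation is commoner with fewer lines. The count was 17 of 32 without NOCT line 12 (41.7% of all genes), 3 without GST line 8 (28.9%), 2 without GST line 9 (26.1%) and 2 without NOCT line 4 (27.4%). Scaling by spike-in totals moved the median over all genes to 0.15 and that of the 32 genes to 0.15 as well.

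**Figure D1:**
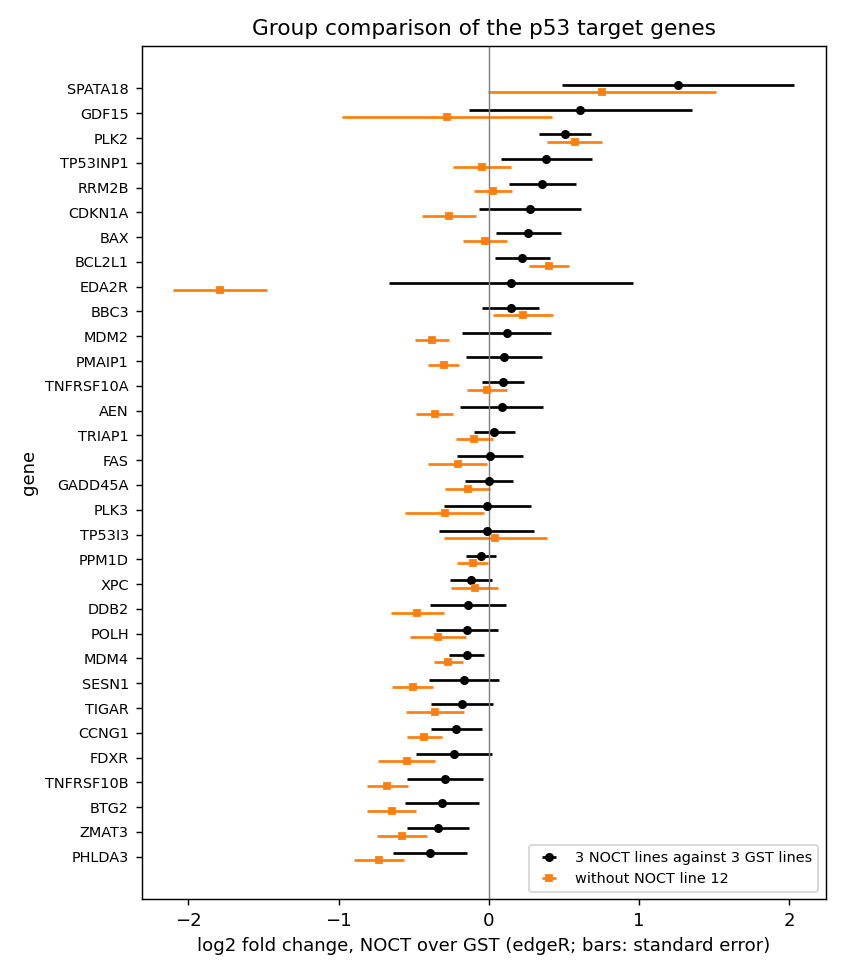
Log2 fold change of NOCT over GST lines for each of the 32 genes (horizontal axis; bars are the standard error from edgeR), with all 6 lines in black and without NOCT line 12 in orange. With all lines the values lie on both sides of 0, from -0.39 for PHLDA3 to 1.26 for SPATA18; without NOCT line 12, 6 of the 32 lie above 0.

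The small group difference sat beside a wide spread within the NOCT group. NOCT line 12 had the highest level of the 6 lines for 22 of the 32 genes, against 18.4% of all genes tested. NOCT line 4 had the lowest for 20 of the 32, against 21.1% of all genes. Relative to each gene's own mean over the 6 lines, on the log2(CPM + 0.1) scale, the 32 genes had a median of 0.38 in NOCT line 12, against -0.40 for line 4 and -0.14 for line 11. The GST lines lay between, at 0.05, 0.11 and -0.07 in lines 2, 8 and 9. Over all genes the same medians were within 0.02 of 0 in every line. NOCT line 12 was above all 3 GST lines for 23 of the 32 (29.3% of all genes), while NOCT line 4 was below them for 23 (32.9%) and NOCT line 11 for 15 (30.2%). Both extremes, highest in line 12 and lowest in line 4, were shared by 13 of the 32 (5.45% of all genes). For 11 of the 32 genes the GST lines lay between, with line 12 above and lines 4 and 11 below every GST line, which was so for 3.82% of all genes. In these bulk libraries an RNA carried by fewer cells and one carried at a lower level per cell cannot be told apart. These counts by line were chosen after the values were seen and have no test: each line is 1 library.

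**Figure D2:**
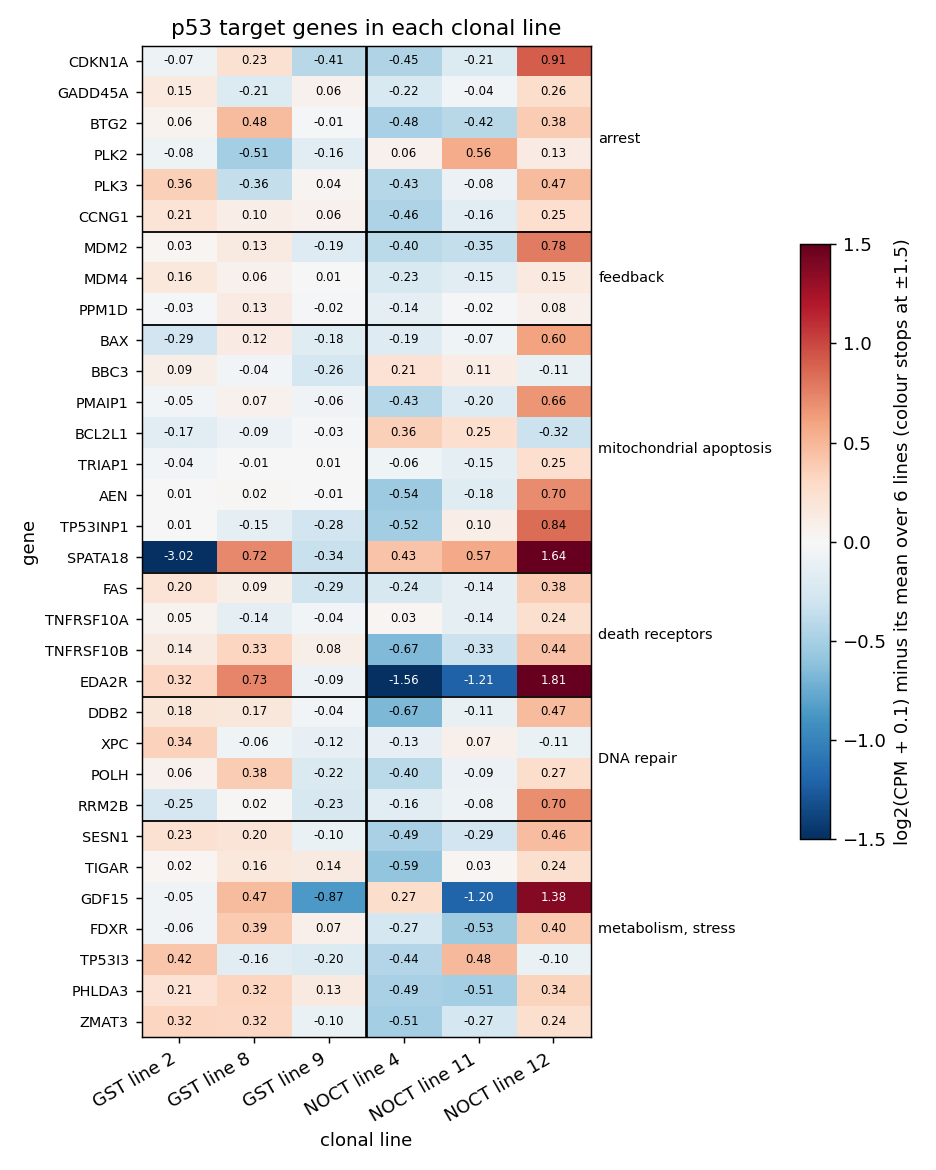
Each cell gives log2(CPM + 0.1) of a gene (rows, by role) in a clonal line (columns) minus that gene's mean over the 6 lines. The NOCT line 12 column is above 0 for 28 of the 32 genes and the NOCT line 4 column for 6.

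**Figure D3:**
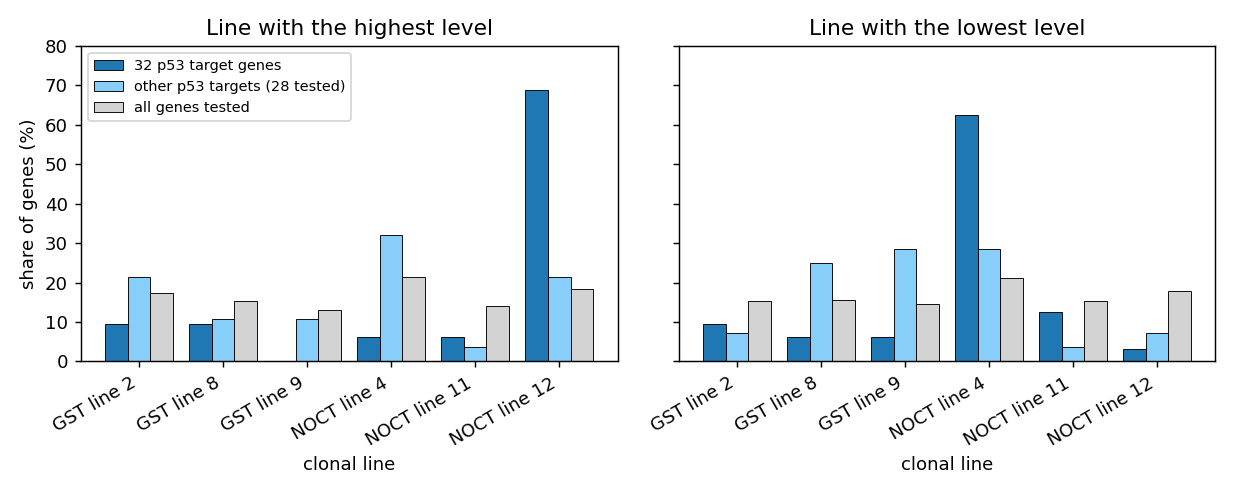
Share of genes (%) whose highest (left) or lowest (right) level fell in each line, for the 32 genes, for 28 other p53 targets and for all genes tested. The 32 genes have their highest level in NOCT line 12 in 68.8% of cases and their lowest in NOCT line 4 in 62.5%.

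Among the arrest genes, NOCT line 12 was the highest line for 4 of 6 and NOCT line 4 the lowest for 5 of 6. CDKN1A (ENSG00000124762; chromosome 6, 36676460 to 36687339, plus strand, GRCh38) encodes p21, the inhibitor of cyclin-dependent kinases through which p53 halts the cell cycle. Its level was 64.1, 79.01 and 50.6 CPM in GST lines 2, 8 and 9, and 49.4, 58.5 and 127 CPM in NOCT lines 4, 11 and 12. Line 12 was thus 1.97-fold above the GST mean, while line 11 lay within the GST range and line 4 just below it. The group means were 64.6 ± 14.2 and 78.3 ± 42.5 CPM (SD, n = 3 each; log2 fold change 0.28, SE 0.34, edgeR adjusted p 0.753). Without NOCT line 12 the sign turned, to -0.26 (SE 0.18, edgeR adjusted p 0.421).

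CCNG1 (ENSG00000113328; chromosome 5, 163437569 to 163446151, plus strand), which encodes cyclin G1, had 321, 297 and 289.6 CPM in GST lines and 201, 249 and 331 CPM in NOCT lines 4, 11 and 12. Its line 12 value stood only just above the GST lines, and lines 4 and 11 stood below them (log2 fold change -0.22, SE 0.17, edgeR adjusted p 0.603). BTG2 (ENSG00000159388; chromosome 1, 203305491 to 203309602, plus strand), an antiproliferative gene, had 38.4, 51.5 and 36.6 CPM in GST lines and 26.4, 27.6 and 48.1 CPM in NOCT lines 4, 11 and 12 (log2 fold change -0.31, SE 0.25, edgeR adjusted p 0.607). Here GST line 8 was the highest, and the pair of NOCT lines 4 and 11 was again below every GST line.

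PLK2 (ENSG00000145632; chromosome 5, 58453982 to 58460260, minus strand), a polo-like kinase gene, did not follow this order. It had 28.7, 21.2 and 27.1 CPM in GST lines and 31.6, 44.7 and 33.1 CPM in NOCT lines 4, 11 and 12, with the highest value in line 11. Every NOCT line was above every GST line (25.7 ± 3.97 against 36.5 ± 7.16 CPM, SD, n = 3 each). The log2 fold change was 0.51 (SE 0.17), with an unadjusted p of 0.0192 and an adjusted p of 0.263 in edgeR. Its unadjusted p was 0.0838 without NOCT line 11 and 0.0756 without GST line 8, and under 0.05 when any of the other lines was left out. An exact permutation test on log2(TPM + 1), two-sided, gave p = 0.1, the smallest value that 3 lines against 3 allow. In the authors' deposited table PLK2 has a log2 fold change of 0.43 with an adjusted p of 0.146. The remaining arrest genes, GADD45A, which acts in growth arrest and repair, and PLK3, another polo-like kinase gene, had log2 fold changes of 0.00 and -0.01.

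Of the feedback genes, MDM2 (ENSG00000135679; chromosome 12, 68808176 to 68850686, plus strand) showed the line pattern most plainly. It had 399, 428 and 343 CPM in GST lines 2, 8 and 9, and 296, 306 and 670.1 CPM in NOCT lines 4, 11 and 12. Line 12 was above every GST line and lines 4 and 11 were below every one, so that the means of 389.9 ± 43.5 and 424 ± 213 CPM (SD, n = 3 each) differed by less than the spread (log2 fold change 0.12, SE 0.30, edgeR adjusted p 0.885). Without NOCT line 12 its log2 fold change was -0.38 (SE 0.11, edgeR adjusted p 0.0918).

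MDM4 (ENSG00000198625; chromosome 1, 204516379 to 204558120, plus strand), whose protein binds p53 and restrains its activity, varied less, with 154, 143 and 138 CPM in GST lines and 117, 123 and 152 CPM in NOCT lines 4, 11 and 12 (log2 fold change -0.15, SE 0.12, edgeR adjusted p 0.604). PPM1D, a phosphatase gene that damps the DNA damage response, had the smallest spread of the 32 genes, with a 1.20-fold difference between its highest and lowest line.

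In the group of mitochondrial apoptosis genes, all 8 had a log2 fold change above 0 with a median of 0.18, and none passed the test. That direction was not kept without NOCT line 12, where 5 of the 8 were below 0, among them AEN (-0.36) and PMAIP1 (-0.30), and the median was -0.04. NOCT line 12 was the highest line for 6 of the 8. BAX (ENSG00000087088; chromosome 19, 48954815 to 48961798, plus strand), which encodes a protein that opens the outer mitochondrial membrane, had 29.8, 39.5 and 32.2 CPM in GST lines and 31.9, 34.8 and 55.3 CPM in NOCT lines 4, 11 and 12. Lines 4 and 11 lay within the GST range and line 12 above it (log2 fold change 0.26, SE 0.22, edgeR adjusted p 0.626; -0.03 without line 12).

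TP53INP1 (ENSG00000164938; chromosome 8, 94925972 to 94949411, minus strand), whose nuclear protein acts in apoptosis and autophagy, had 23.6, 21.1 and 19.2 CPM in GST lines and 16.3, 25.1 and 41.98 CPM in NOCT lines 4, 11 and 12. The NOCT lines thus lay on both sides of the GST range (log2 fold change 0.38, SE 0.30, edgeR adjusted p 0.609; -0.04 without line 12). PMAIP1, which encodes the BH3-only protein NOXA, and AEN, a nuclease gene, were named after their values were seen. PMAIP1 had 316 to 345 CPM in GST lines and 244, 287 and 520.4 CPM in NOCT lines 4, 11 and 12. AEN had 94.6 to 96.7 CPM in GST lines, the narrowest GST range relative to its level in this group, and 65.6, 83.9 and 155 CPM in NOCT lines.

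A pair of members of this group went the other way, and both were singled out after their values were seen. BCL2L1, which encodes the anti-apoptotic protein BCL-XL, had 16.7, 17.7 and 18.4 CPM in GST lines and 24.2, 22.5 and 15.1 CPM in NOCT lines 4, 11 and 12, so that line 12 was the lowest of all. BBC3, which encodes the BH3-only protein PUMA, was highest in NOCT line 4 at 7.43 CPM and had 5.93 CPM in line 12, inside the GST range of 5.31 to 6.81. TRIAP1, a survival gene, had 29.4 CPM in line 12 and 22.2 to 24.7 CPM elsewhere. SPATA18 (ENSG00000163071; chromosome 4, 52051331 to 52097292, plus strand), a gene of mitochondrial quality control, was near the limit of detection. Reads numbered 1, 42 and 18 in GST lines 2, 8 and 9, against 40, 39 and 75 in NOCT lines 4, 11 and 12 (log2 fold change 1.26, SE 0.77, edgeR adjusted p 0.506). The value was 0.72 without GST line 2, which has the 1 count, 2.28 without GST line 8 and 0.75 without NOCT line 12.

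**Figure D4:**
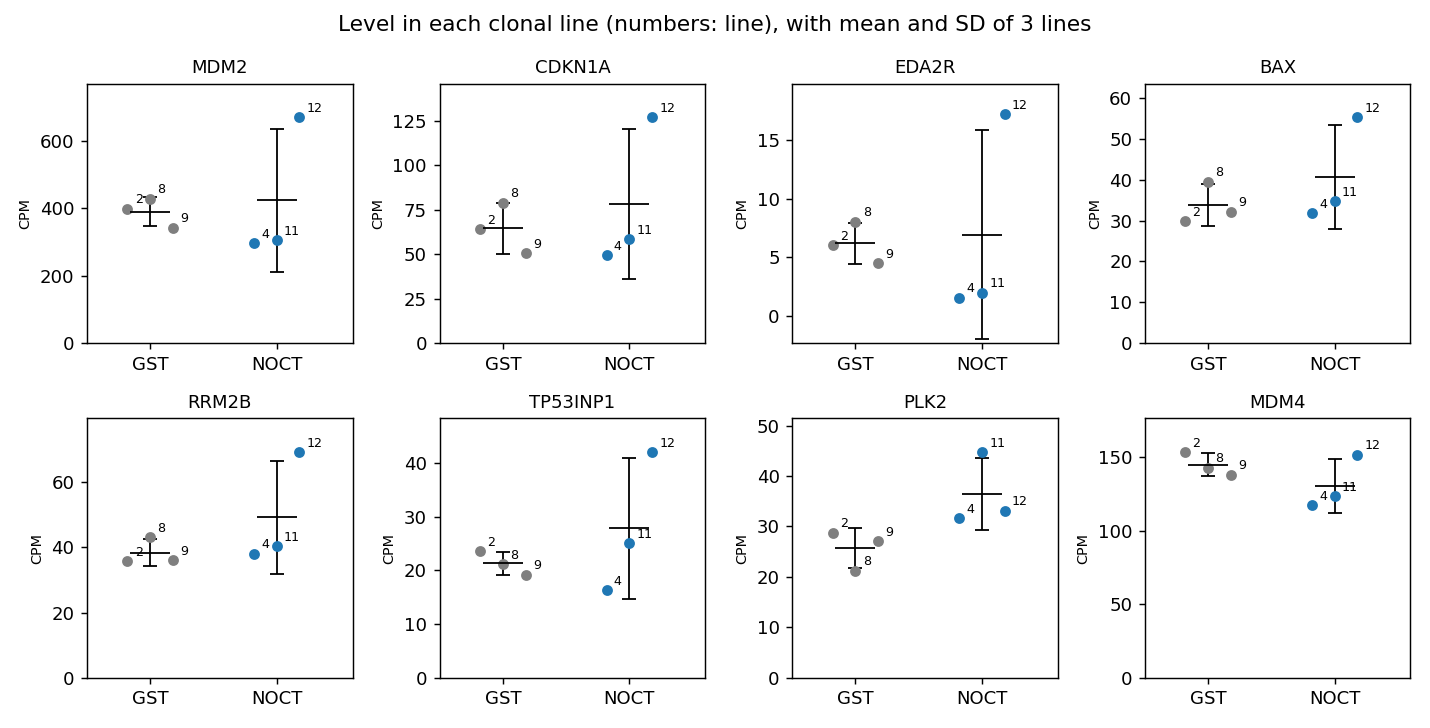
CPM of 8 genes in each GST and NOCT line (points, labelled by line number), with the mean and SD of 3 lines. NOCT line 12 is the highest point for MDM2, CDKN1A, EDA2R, BAX, RRM2B and TP53INP1; PLK2 is highest in NOCT line 11 and MDM4 in GST line 2.

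All 4 death receptor genes had their highest level in NOCT line 12. EDA2R (ENSG00000131080; chromosome X, 66595637 to 66639298, minus strand), a receptor for the A2 form of ectodysplasin, had the widest range of the well-counted genes. Reads numbered 114, 173 and 92 in GST lines 2, 8 and 9, or 6.02, 8.04 and 4.52 CPM, against 40, 45 and 342 in NOCT lines 4, 11 and 12, or 1.57, 2.02 and 17.2 CPM. The highest and the lowest line, both in the NOCT group, differed 10.9-fold. The group means hardly differed (6.19 ± 1.76 and 6.92 ± 8.88 CPM, SD, n = 3 each; log2 fold change 0.15, SE 0.81, edgeR adjusted p 0.952). Without NOCT line 12, a comparison singled out after the values were seen, the direction turned and EDA2R passed (log2 fold change -1.79, SE 0.31, edgeR adjusted p 0.0178).

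TNFRSF10B, a receptor for the death ligand TRAIL, had 79.6, 90.6 and 76.6 CPM in GST lines and 45.6, 57.7 and 98.4 CPM in NOCT lines 4, 11 and 12. Its values were chosen for display because it too passed without line 12 (log2 fold change -0.68, SE 0.14, edgeR adjusted p 0.0273). The other TRAIL receptor, TNFRSF10A, varied less, at 19.9 to 22.8 CPM in GST lines and 22.4, 20.01 and 26.1 CPM in NOCT lines. FAS, the receptor for FAS ligand, had 8.66 to 12.3 CPM in GST lines and 9.003, 9.65 and 13.9 CPM in NOCT lines.

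The repair genes were less uniform. RRM2B (ENSG00000048392; chromosome 8, 102204502 to 102239118, minus strand), a ribonucleotide reductase subunit that supplies nucleotides for repair, had 35.9, 43.1 and 36.1 CPM in GST lines and 38.02, 40.4 and 69.2 CPM in NOCT lines 4, 11 and 12. Line 12 alone stood outside the GST range (log2 fold change 0.36, SE 0.23, edgeR adjusted p 0.517; 0.03 without line 12). DDB2, the damage-binding protein whose start region is printed above, had 38.2, 37.95 and 32.7 CPM in GST lines and 21.2, 31.2 and 46.8 CPM in NOCT lines, again with lines 4 and 11 below and line 12 above every GST line. XPC, its partner in recognising damage, did not show that order, with 42.9, 49.3 and 43.5 CPM in NOCT lines and 43.1 to 59.4 CPM in GST lines. With the level of its chromosomal neighbours removed (described below), the order held only by small margins. NOCT line 12 was then at 0.172 beside 0.163 in GST line 2, and NOCT line 11 at -0.0723 beside -0.0711 in GST line 9 (log2). POLH, the polymerase that copies past ultraviolet lesions, was highest in GST line 8 (44.7 CPM) and lowest in NOCT line 4 (25.9 CPM).

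Of the 7 metabolism and stress genes, NOCT line 4 was below every GST line in 6 and NOCT line 11 in 5. PHLDA3 (ENSG00000174307; chromosome 1, 201464383 to 201469237, minus strand), an inhibitor of AKT signalling, had 11.8, 12.7 and 11.2 CPM in GST lines and 7.23, 7.13 and 12.9 CPM in NOCT lines 4, 11 and 12 (log2 fold change -0.39, SE 0.25, edgeR adjusted p 0.517). The GST lines were close together and lines 4 and 11 lay below them. Without line 12 it passed, at -0.73 (SE 0.17, edgeR adjusted p 0.0435).

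ZMAT3 (ENSG00000172667; chromosome 3, 179017223 to 179072279, minus strand), an RNA-binding regulator, had 37.6, 37.5 and 28.03 CPM in GST lines and 21.2, 24.99 and 35.5 CPM in NOCT lines (log2 fold change -0.34, SE 0.21, edgeR adjusted p 0.506). SESN1, a sestrin that restrains growth signalling, had 46.5 to 58.6 CPM in GST lines and 35.5, 40.9 and 68.7 CPM in NOCT lines. TIGAR, which lowers glycolytic flux, was low in NOCT line 4 alone, at 12.9 CPM against 19.7 to 22.9 CPM in the other lines. FDXR, a mitochondrial electron carrier reductase, had its lowest value in NOCT line 11 (9.42 CPM) and its highest in NOCT line 12 (18.03 CPM). TP53I3, a quinone oxidoreductase gene, was lowest in NOCT line 4 and highest in NOCT line 11, at 2.32 and 4.49 CPM. GDF15 (ENSG00000130513; chromosome 19, 18374731 to 18389176, plus strand), a secreted stress cytokine, was covered by 8, 14 and 4 reads in GST lines 2, 8 and 9 and by 14, 3 and 26 in NOCT lines 4, 11 and 12. The lowest is at the floor of 3 counts, and no difference was detectable at this depth (log2 fold change 0.61, SE 0.74, edgeR adjusted p 0.751; -0.28 without line 12).

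With NOCT line 12 left out, 3 of the 32 genes were lower in the NOCT lines at an adjusted p under 0.05 in edgeR (EDA2R, TNFRSF10B and PHLDA3), against 2.28% of all 17882 genes tested in that direction, and 0 were higher (3.15%). At an unadjusted p under 0.05, 13 of the 32 were lower (11.4% of all genes) and 2, PLK2 and BCL2L1, were higher (11.9%). The median log2 fold change of the 32 genes was -0.28, beside -0.01 for all genes. BTG2 (-0.65), ZMAT3 (-0.58), CCNG1 (-0.43) and MDM4 (-0.27) lay farther below 0 than with all lines, without passing. That fit compares 2 NOCT lines with 3 GST lines and calls many more of all genes, 970 (5.42%) against 10 with all lines. Line 12 was the highest line for 22 of the 32 genes, so leaving it out lowers the NOCT mean for most of them. The p-values of that fit are therefore descriptive and no independent test. At an unadjusted p under 0.05 there were 2 of the 32 without NOCT line 4, and 0 without NOCT line 11. There was 1 when any single GST line was left out, PLK2 without lines 2 or 9 and SPATA18 without line 8. No share of all genes is given for the fits without a line other than NOCT line 12, so their counts have no background here.

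Each gene was set beside its neighbours on the chromosome, measured as the median deviation of up to 50 tested genes on each side. For 22 of the 32 genes the neighbours stayed within 0.2 (log2) of their mean in every line. MDM2, CDKN1A and EDA2R were among them, with neighbours at 0.01, 0.08 and -0.07 in NOCT line 12, where the genes themselves were at 0.78, 0.91 and 1.81. The neighbours deviated in the same direction as the gene for RRM2B in NOCT line 12 (neighbours 0.47, gene 0.70), AEN (0.26 and 0.70) and TP53INP1 (0.23 and 0.84). They also did for BCL2L1 in NOCT lines 4, 11 and 12, where neighbours were at 0.41, 0.30 and -0.23 and the gene at 0.36, 0.25 and -0.32. In NOCT line 4 the neighbours of PMAIP1 (-0.20, gene -0.43), TP53I3 (-0.37, gene -0.44) and BBC3 (0.36, gene 0.21) lay on the gene's own side of the mean. BAX went against its neighbours: in NOCT line 4 these were at 0.36 and BAX at -0.19, and in line 12 at -0.13 and 0.60. XPC had neighbours at 0.21 and was itself at -0.13 in NOCT line 4, and at -0.28 and -0.11 in line 12, and SPATA18, with its 1 count in GST line 2, had neighbours at 0.22 there.

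With the neighbour level removed, NOCT line 12 was the highest line for 21 of the 32 genes (17.1% of all genes) and NOCT line 4 the lowest for 20 (19.9%). Of these, 20 and 18 were shared with the counts before removal: FDXR and PHLDA3 left the first set and XPC entered it, while PMAIP1 and TP53I3 left the second and BAX and PHLDA3 entered it. After removal 0 of the 32 passed in edgeR, in a fit that called 37 of all 17261 genes tested. At an unadjusted p under 0.05 there was 1, for which no share of all genes is given. The log2 fold change of RRM2B then was 0.08 (SE 0.12), that of BAX 0.07 (SE 0.30) and that of BCL2L1 -0.11 (SE 0.10), beside 0.36, 0.26 and 0.22 with it; that of PLK2 was 0.47 (SE 0.17).

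**Figure D5:**
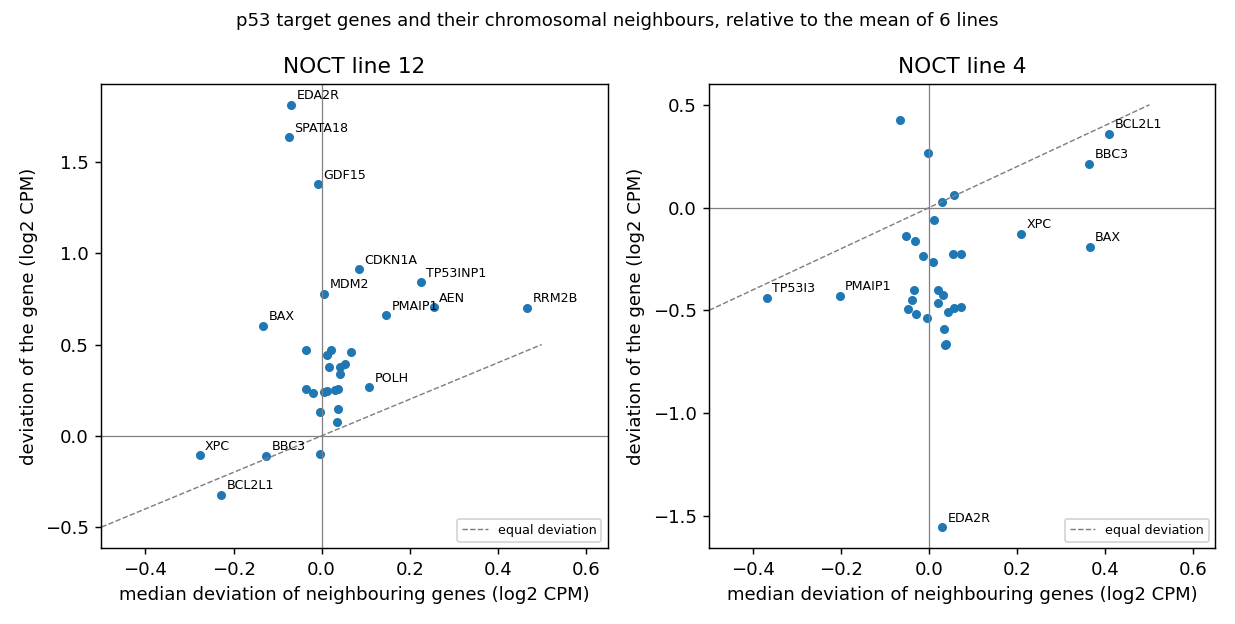
Deviation of each of the 32 genes from its mean over 6 lines (vertical, log2 CPM) against the median deviation of its chromosomal neighbours (horizontal, log2 CPM) in NOCT line 12 (left) and NOCT line 4 (right). EDA2R is at 1.81 in line 12 and -1.56 in line 4 with neighbours near 0, while BCL2L1 lies near the dashed line of equal deviation in both.

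Of 23 upstream kinases, partners and regulators of p53, 22 were tested and 0 passed in edgeR. At an unadjusted p under 0.05, 3 were higher (7.38% of all genes) and 2 lower (6.52%). The median log2 fold change was 0.02. EP300, a histone acetyltransferase that serves as a p53 coactivator, had 247 ± 9.18 CPM in GST and 329.5 ± 6.27 CPM in NOCT lines (SD, n = 3 each; log2 fold change 0.42, SE 0.08, edgeR adjusted p 0.120). DESeq2 called it, at an adjusted p of 0.00209, and so does the authors' deposited table, at 0.0134. With the neighbour level on chromosome 22 removed its log2 fold change was 0.16. ATR, the kinase that responds to stalled replication, was at -0.32 (SE 0.10, edgeR adjusted p 0.233) and PPP1R13L, an inhibitory p53-binding protein, at 0.79 (SE 0.27, edgeR adjusted p 0.258).

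A further 34 genes known as p53 targets were examined, of which 28 were tested. None passed in edgeR, while 6 were higher (7.38% of all genes) and 3 lower (6.52%) at an unadjusted p under 0.05, and DESeq2 called 3 of them (2.94%). Their median log2 fold change was -0.01. NOCT line 12 was the highest line for 6 of the 28 (21.4%), near the 18.4% of all genes. NOCT line 4 was the highest for 9 (21.5% of all genes) and also the lowest for 8 (21.1% of all genes). The median deviation was highest in NOCT line 12, at 0.13 with 20 of the 28 above their mean, and lowest in GST line 9, at -0.11. The smallest p-values belonged to PERP, a desmosome and apoptosis gene (log2 fold change 0.91, SE 0.21, edgeR adjusted p 0.159), TNFAIP8 (0.54, SE 0.14, edgeR adjusted p 0.196) and NINJ1, a gene of membrane rupture (-0.64, SE 0.17, edgeR adjusted p 0.198). They were the 3 called by DESeq2, at adjusted p-values of 0.00266, 0.0499 and 0.0373. The authors' deposited table calls 2 of the list (2.09% of its gene rows), PERP at an adjusted p of 0.00217 and NINJ1 at 0.0422. Without NOCT line 12, 30 of the 34 could be tested and 6 passed in edgeR, 4 higher (3.15% of all genes) and 2 lower (2.28%); 5 of the 6 were among the 28.

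Cell cycle genes that p53 lowers through p21 and the DREAM repressor complex were listed as well. All 22 were tested and 0 passed in edgeR. At an unadjusted p under 0.05, 2 were higher (7.38% of all genes) and 1 lower (6.52%). The median log2 fold change was 0.04. NOCT line 12 was the lowest line for 8 of the 22 (17.9% of all genes) and NOCT line 11 the highest for 9 (14.0%). NOCT line 4 was the lowest for 6 (21.1% of all genes) and the highest for 4 (21.5%). Their median deviation was -0.08 in NOCT line 12 and 0.11 in NOCT line 11. KIF23 (0.37, SE 0.09, edgeR adjusted p 0.182), TTK (0.32, SE 0.12, edgeR adjusted p 0.308) and AURKB (-0.23, SE 0.10, edgeR adjusted p 0.337), all mitotic genes, had the smallest p-values.

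Levels of HEK293 markers varied between lines too. Of the 8 tested, 0 passed in edgeR. At an unadjusted p under 0.05, 4 were higher (7.38% of all genes) and 1 lower (6.52%). DESeq2 called 4 (2.94% of all genes). PAX2 (log2 fold change -2.13, edgeR adjusted p 0.0567), EYA1 (0.99, 0.120) and KRT8 (1.11, 0.159) had the smallest p-values. Their median deviation was 0.60 in NOCT line 4, 0.35 in line 11 and -0.15 in line 12, beside -0.38 to -0.19 in GST lines. Whether this difference between lines has a part in the levels of the p53 targets was not tested.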

How the data were processed

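Total RNA (5 µg per line, RIN 9.6 to 10) was depleted of ribosomal RNA and sequenced as strand-specific 50 bp reads, per the labels' protocols. The submitters' processing notes name GRCh38, STAR 2.5.2b, HTSeq 0.6.1p1 and DESeq2 1.16.1, without the annotation release. The authors deposited whole read counts per gene, TPM values, and their own DESeq2 table with log2 fold changes, p-values, adjusted p-values, a test score and the mean normalised signal. The direction of that table was read from its construct rows, and 5 rows that name no gene were left out: reads without a feature (26.5% to 30.6% of each file), ambiguous reads (2.02% to 2.41%) and reads without a unique alignment (13.3% to 14.6%) among them.

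Counts were tested in edgeR 4.0.16 (R 4.3.3): filterByExpr, TMM, quasi-likelihood test, Benjamini-Hochberg adjustment over 17261 genes, threshold 0.05. Standard errors were derived from the F statistic. Deviations by line used log2(CPM + 0.1). The procedure was checked on simulated counts with less spread between lines than these data. That check does not show how small a difference could be detected here. Gene positions came from GENCODE 29 (GRCh38) by identifier. The neighbour level took up to 50 genes on either side, each tested and averaging 1 CPM or more, and used their median deviation. Alternatives were DESeq2 1.42.0, limma 3.58.1 on log2(TPM + 1) and log2(TPM + 0.1), other scalings and filters, a robust fit and leaving out each line.

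The genes and lists were chosen with earlier results of these data known. Genes given in full were MDM2, CDKN1A, BAX, the 10 with the smallest p-values, the 3 with the widest range and any called by edgeR, DESeq2 or the authors (0); these made 14. From each other list at most 3 genes with the smallest p-values were named; 1 further gene that the rule names is not reported here.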

Additional observations from a re-analysis of the deposited data

How the results depend on the processing

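Of 14 genes given in full, 209 refitted fold changes gave 200 with the same sign and 9 with the other. EDA2R, at 0.15 with all lines, ran from -1.79 (edgeR adjusted p 0.0178, without NOCT line 12) to 0.62 (without NOCT line 4) when 1 line was left out; the cause was not tested. Its other values of opposite sign were -0.03 without GST line 9 and, with limma on TPM, -0.34 and -0.55. The remaining 5, all without NOCT line 12, were CDKN1A (-0.26), MDM2 (-0.38), BAX (-0.03), TP53INP1 (-0.04) and GDF15 (-0.28). Without 1 line, the 32 genes had 0 to 3 calls, 0 to 15 at an unadjusted p under 0.05, and 1 to 17 whose groups did not overlap; all genes had 0 to 970 calls, the upstream regulators 0 to 2 and the other p53 targets 0 to 6. DESeq2 called 508 of all genes, 1 upstream regulator, 3 other targets and 1 gene of the DREAM list. Without a filter on low counts, edgeR called 888 of all genes, 1 upstream regulator and 5 other targets, and 4 of the 32 had an unadjusted p under 0.05. That share of all genes is not given for the unfiltered fit, so the 4 have no background here. Spike-in totals gave 22 calls and the neighbour level 37 over all genes, and each gave 2 of the 32 whose groups did not overlap. The share of all genes without overlap is not given for either, so that count has no background here. In alternatives chosen after seeing the data, the 22 genes highest in NOCT line 12 were 27 and the 20 lowest in NOCT line 4 were 16 with spike-in totals, and 21 and 14 in deposited TPM. Such scalings can shift whole libraries, and no share of all genes is given for them, so these counts have no background here. No paired analysis was possible because the groups share no line numbers. Reads of MDM2, BBC3, FAS, SESN1, GDF15 and PHLDA3 could be lost where another annotated gene overlaps on the same strand, and CCNG1, TRIAP1 and POLH have named pseudogenes.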
